A study of Mus musculus with 2 samples.

Results

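The genes described here are 6 hormone-response genes of mouse mammary fibroblasts, taken by symbol from the 33696 genes listed for both libraries. They are the steroid hormone receptors Esr1, Pgr and Nr3c1, the pituitary hormone receptors Ghr and Prlr, and the estrogen-responsive gene Greb1. All 6 were present in both libraries. Single-cell RNA sequencing (scRNA-seq) was compared between mammary stroma of female wildtype C57BL/6 mice at puberty (4 weeks of age) and in adulthood (9 weeks, virgin). Cells had been sorted as negative for lineage markers of immune, endothelial and red blood cells and for CD24, which marks epithelium. Each stage had 1 library, for which the labels name 2 females per condition, so no test between stages was possible and the spread between animals is unknown.

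Esr1 encodes estrogen receptor alpha, Pgr the progesterone receptor and Nr3c1 the glucocorticoid receptor, all of which are transcription factors switched on by a steroid. Pgr and Greb1 are classic targets of the activated estrogen receptor, and the Greb1 protein binds that receptor as a cofactor. Ghr and Prlr encode the receptors of growth hormone and prolactin, which sit in the cell membrane and signal through JAK2 and STAT5. Ductal growth at puberty depends on ovarian estrogen and pituitary growth hormone, and stromal cells are among those that receive these signals.

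In RefSeq's annotation of build GRCm38.p6, Esr1 (ENSMUSG00000019768 in the deposited gene list) lies at chr10:4611989-5005633, Pgr (ENSMUSG00000031870) at chr9:8898900-8968611, Ghr (ENSMUSG00000055737) at chr15:3317755-3583352, Prlr (ENSMUSG00000005268) at chr15:10177238-10349190 and Greb1 (ENSMUSG00000036523) at chr12:16670615-16801394. Nr3c1 is listed as ENSMUSG00000024431. The RefSeq promoter table held 10 start sites for 5 of the 6 genes. The 250 bases before each start were searched on both strands for GGTCA, the core of the estrogen response element, which reads TGACC on the opposite strand. They were also searched for the full element, which is the core followed by 3 bases of any kind and the reversed core, so that every full element also counts as a core. None of the 10 windows held the full element, which stood in 0.0639% of 32851 mouse promoter windows of that length. The core stood before both Greb1 start sites and before none of the start sites of Esr1, Pgr, Ghr and Prlr, and 35.2% of all windows held it. The 3 matches are shown 5′ to 3′ on the minus strand, the gene's strand, with the core in capitals, because Greb1 is the estrogen-responsive gene that the receptors are set against. They begin 88, 194 and 85 bases before their start sites. A match describes the letters only. Of 3 other motifs searched, AGAACA, the core bound by glucocorticoid and progesterone receptors (TGTTCT on the opposite strand), stood before Prlr start site 2, as did the STAT5 motif TTCNNNGAA, which also stood before Esr1 start site 2. TATAAA, which reads TTTATA on the opposite strand, stood before the Pgr start site and Ghr start site 2. These motifs stood in 16.1%, 7.02% and 12.4% of all windows.
Greb1 start site 1, chr12:16800960-16800984: aagcaacaaaTGACCtctgtccccg
Greb1 start site 2, chr12:16757419-16757443: ctaccaggcgGGTCActggggattg
Greb1 start site 2, chr12:16757310-16757334: tttcaggaagGGTCActtatggtgg

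The pubertal library held 21688 cell barcodes with 255274670 unique molecular identifiers (UMIs, which count captured transcripts), and the adult library 23183 barcodes with 259549498 UMIs. Fibroblasts were taken as cells with at least 500 detected genes, at most 10% mitochondrial UMIs and at least 1 UMI of Pdgfra, which left 18878 pubertal and 20999 adult cells with median depths of 12187 and 11265 UMIs. At least 3 of the 5 fibroblast markers Dcn, Lum, Pdgfra, Col1a2 and Col1a1 were found in 18866 of the pubertal and 20966 of the adult cells. Pdgfra was also the selecting gene, so every cell held 1 of the 5 in advance. The count therefore does not test the fibroblast label. Epithelial markers (5 of 5 with a UMI) summed to 3.16 counts per 1000000 UMIs (CPM) at puberty and 1.12 CPM in the adult, and 4 luminal hormone-sensing epithelial markers to 5.98 and 7.61 CPM. In all fibroblasts together, mural, Schwann, skeletal muscle, endothelial, immune and adipocyte marker lists ranged from 0.735 to 44.4 summed CPM, with Cd3e at 0 in both libraries and Lep at 0 at puberty. A total of 145 barcode sequences occurred in both libraries, 0.669% of the pubertal and 0.625% of the adult barcodes.

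Cells were placed in 6 gates named after marker genes of fibroblast subpopulations. A cell passed a gate with at least 1 UMI of each of Pi16 and Dpp4 (Pi16+Dpp4+), at least 2 UMIs of Ccn5, at least 1 of Gdf10 or Fmo2, at least 1 of Thbs4 or Bmp5, at least 2 of Fabp4, or at least 1 of Crabp1. The Pi16+Dpp4+ gate held 13983 pubertal cells (74.1% of fibroblasts) and 8853 adult cells (42.2%). The Ccn5 gate held 817 and 622 cells, the Gdf10 or Fmo2 gate 7462 and 10066, the Thbs4 or Bmp5 gate 927 and 3117, the Fabp4 gate 1779 and 2553, and the Crabp1 gate 289 and 2672. A cell could pass several gates, and 90.5% of the pubertal and 72.8% of the adult Ccn5 cells were also Pi16+Dpp4+. Marker transcripts of other cell types were unevenly spread over the gates. Mural markers summed to 318 CPM at puberty and 139 CPM in the adult in Fabp4. In Thbs4 or Bmp5 they summed to 225 and 69.7 CPM, and in the other gates to between 13.5 and 51.2 CPM. At least 3 of 5 mural markers were found in 119 pubertal and 59 adult Fabp4 cells. Epithelial markers in Fabp4 summed to 16.5 and 0.160 CPM, and luminal ones to 20.4 and 13.3 CPM. Levels are given as CPM of the summed UMIs with exact 95% Poisson intervals. Detection is the share of cells with at least 1 UMI after every cell was thinned at random to 3000 UMIs, with exact Clopper-Pearson intervals. All intervals cover counting error only, not the spread between animals or libraries. A larger CPM in a sum of cells can come from more cells with the transcript or from more transcript per cell.

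Mural cells gave a comparison for the fibroblast values, and transcripts carried between droplets were not estimated. In mural cells, defined as cells without a Pdgfra UMI and with at least 3 of 5 mural markers (618 pubertal cells with a median of 6418 UMIs, and 359 adult cells with a median of 6358), the thinned detection of Esr1 was 2.33% at puberty and 2.90% in the adult. Pgr was detected in 0.166% and 0% of them and Prlr in 0.499% and 0%. Greb1 was detected in none, which allows a share of up to 0.499% at puberty and 0.968% in the adult. The fibroblast shares given next lay above these mural values for Esr1, Pgr, Prlr and Greb1. Other sorted cells without Pdgfra UMIs were not below fibroblasts: Esr1 was detected in 61.3% and 49.4% of 31 and 85 skeletal muscle cells, and Pgr in 42.9% and 26.7% of 7 and 30 epithelial cells. Ghr was detected in 7.82% and 9.03% of mural cells and Nr3c1 in 35.1% and 51.6%, so Nr3c1 was not restricted to fibroblasts.

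The 4 genes Esr1, Pgr, Prlr and Greb1 were lower in adult than in pubertal fibroblasts, each to between 0.359 and 0.527 of the pubertal CPM, while Ghr and Nr3c1 differed by less than 1.5-fold. Esr1 was at 360 CPM at puberty and 190 CPM in the adult, a ratio of 0.527 (95% interval 0.521 to 0.533). Pgr was at 38.4 and 13.8 CPM, a ratio of 0.359 (0.345 to 0.373). Prlr was at 29.5 and 12.2 CPM, a ratio of 0.413 (0.395 to 0.431), and Greb1 at 16.4 and 8.22 CPM, a ratio of 0.50 (0.473 to 0.527). Ghr was at 400 and 333 CPM, a ratio of 0.833 (0.825 to 0.841). Nr3c1 alone was higher in the adult, at 241 and 286 CPM, a ratio of 1.19 (1.17 to 1.20). Detection followed the same directions: 54.6% of pubertal and 34.3% of adult cells had an Esr1 UMI, 6.97% and 2.29% a Pgr UMI, 5.73% and 2.13% a Prlr UMI, 4.13% and 2.00% a Greb1 UMI, 54.8% and 48.8% a Ghr UMI, and 49.98% and 55.2% an Nr3c1 UMI.

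With a difference of 1.5-fold or more as the call, 4 of the 6 genes were lower and 0 higher in the adult. Among the 8645 genes with at least 10 CPM in 1 library, 5.09% were lower by this rule and 12% higher (7.39% and 8.07% with edgeR's factors), and the median log2 ratio of all genes was 0.13. Relative to that median, the log2 ratios were -1.06 for Esr1, -1.61 for Pgr, -1.41 for Prlr, -1.13 for Greb1, -0.40 for Ghr and 0.11 for Nr3c1. The mix of gates differed between the stages. When the cells of each pattern of gates were weighted to their pubertal share of UMIs, an alternative added after seeing the data, the ratios were 0.704 for Esr1, 0.637 for Pgr, 0.664 for Greb1 and 0.325 for Prlr, so that Esr1 no longer passed the 1.5-fold call. Without the Pdgfra requirement the Prlr ratio was 0.769 and also lost the call. In the 32 adult cells that had no Pdgfra UMI and at least 3 of 5 epithelial markers, Prlr stood at 4012 CPM.

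**Figure D1:**
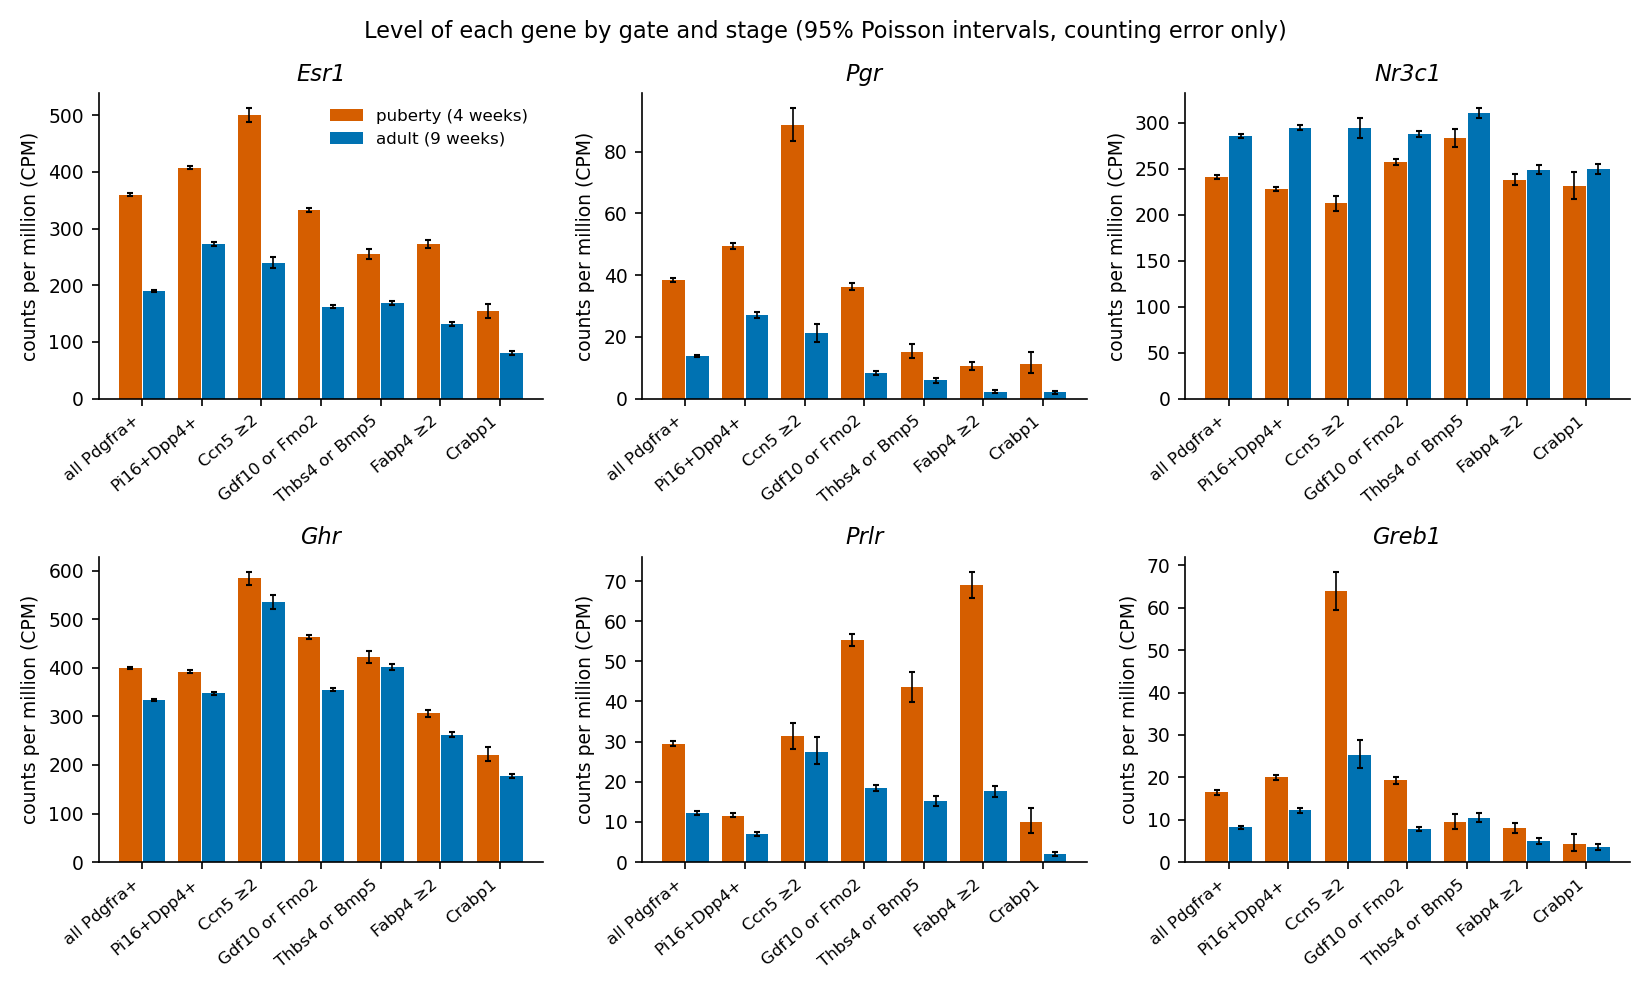
Level of each gene in CPM (y axis, starting at 0, a different scale in each panel) in all Pdgfra+ fibroblasts and in the 6 gates (x axis), at puberty (orange) and in the adult (blue), with 95% Poisson intervals for counting error. Esr1, Pgr and Greb1 were highest in the pubertal Ccn5 gate (500, 88.7 and 63.9 CPM), Prlr in the pubertal Fabp4 gate (69.1 CPM), and Nr3c1 varied least.

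Esr1 was lower in the adult in every gate, and its level differed about 3.24-fold between the highest and the lowest gate at puberty and 3.38-fold in the adult. At puberty the order was 500 CPM in the Ccn5 gate, 407 in Pi16+Dpp4+, 333 in Gdf10 or Fmo2, 273 in Fabp4, 255 in Thbs4 or Bmp5 and 155 in Crabp1, with no overlap between the intervals of neighbours. In the adult Pi16+Dpp4+ cells led with 273 CPM, followed by Ccn5 at 240, Thbs4 or Bmp5 at 169, Gdf10 or Fmo2 at 162, Fabp4 at 132 and Crabp1 at 80.6. Only Thbs4 or Bmp5 and Gdf10 or Fmo2 had overlapping intervals there. The adult to puberty ratio was smallest in the Ccn5 gate, at 0.479 (0.457 to 0.503), and largest in Pi16+Dpp4+, at 0.670 (0.661 to 0.678), just short of a 1.5-fold difference. Mean UMIs per cell with any Esr1 UMI were 5.39 at puberty and 3.62 in the adult.

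Pgr was found almost wholly in Pi16+Dpp4+ cells, which held 98.7% of its pubertal and 96.3% of its adult fibroblast UMIs with 74.1% and 42.2% of the cells. In all fibroblasts outside that gate Pgr was at 2.10 CPM at puberty and 0.995 CPM in the adult. Across the gates at puberty Pgr was at 88.7 CPM in Ccn5, 49.4 in Pi16+Dpp4+, 36.2 in Gdf10 or Fmo2, 15.2 in Thbs4 or Bmp5, 11.3 in Crabp1 and 10.5 in Fabp4, the last 3 with overlapping neighbours. In the adult it was at 27.2 CPM in Pi16+Dpp4+, 21.1 in Ccn5, 8.29 in Gdf10 or Fmo2, 5.87 in Thbs4 or Bmp5, 2.14 in Fabp4 and 2.00 in Crabp1, and only the last 2 overlapped. The Ccn5 gate thus stood above Pi16+Dpp4+ at puberty and below it in the adult. The ratio ranged from 0.177 (0.120 to 0.262) in Crabp1 to 0.550 (0.528 to 0.573) in Pi16+Dpp4+, and was 0.238 (0.204 to 0.277) in Ccn5. Of the Crabp1 gate's Pgr UMIs, 1 cell held 14 of 48 at puberty and 1 cell 12 of 65 in the adult. Without these cells Pgr was at 8.08 and 1.63 CPM there. In cells that passed the Pi16+Dpp4+ gate and no other, Pgr was at 44.8 CPM at puberty and 37.4 CPM in the adult, a ratio of 0.836 (0.793 to 0.880).

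Within the Gdf10 or Fmo2 gate the ratio of Pgr was smaller in cells with Fmo2 alone than in cells with Gdf10 alone. Cells with Fmo2 and no Gdf10 UMI had 67.6 CPM of Pgr at puberty and 10.4 CPM in the adult, a ratio of 0.154 (0.140 to 0.170). Cells with Gdf10 and no Fmo2 UMI had 16.8 and 8.37 CPM, a ratio of 0.498 (0.435 to 0.570). Greb1 divided the same way, with 34.7 and 9.08 CPM in the Fmo2 cells (ratio 0.261, 0.234 to 0.292) and 8.90 and 6.85 CPM in the Gdf10 cells (0.769, 0.652 to 0.908). In the whole gate, cells that were also Pi16+Dpp4+ had 57.3 CPM of Pgr at puberty and 20.2 CPM in the adult. The other cells of the gate had 1.94 and 0.938 CPM. Cells also Pi16+Dpp4+ made up 55.9% of the gate at puberty and 30.4% in the adult. The Fmo2 and Gdf10 cells were not divided by Pi16+Dpp4+, so its part in their difference was not tested. These splits were chosen after the values of the gates were seen.

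Nr3c1 was the most even of the 6 genes. Its highest gate, Thbs4 or Bmp5 at both stages, was at 284 CPM at puberty and 311 CPM in the adult, 1.33-fold and 1.25-fold its lowest gate. The lowest gate was Ccn5 at puberty, at 213 CPM, and Fabp4 in the adult, at 249 CPM. At puberty Fabp4, Crabp1 and Pi16+Dpp4+ formed a run of overlapping neighbours at 238, 231 and 228 CPM. In the adult Pi16+Dpp4+, Ccn5 and Gdf10 or Fmo2 overlapped at 295, 294 and 288 CPM, as did Crabp1 and Fabp4. The ratio exceeded 1 in every gate, from 1.05 (1.01 to 1.08) in Fabp4 to 1.38 (1.31 to 1.46) in Ccn5, below 1.5-fold throughout. It turned below 1 in all cells outside Pi16+Dpp4+, at 0.967 (0.949 to 0.985), and in cells of Gdf10 or Fmo2 alone, at 0.934 (0.907 to 0.961), and was 0.980 (0.872 to 1.11) in cells of Crabp1 alone. The other library scalings tried lower every log2 ratio of all fibroblasts by 0.14. The ratio in all fibroblasts was still above 1 with them, at 1.07 with edgeR's factors and 1.08 with those of DESeq2, but a shift of that size would put Thbs4 or Bmp5, Crabp1 and Fabp4, with log2 ratios of 0.13, 0.11 and 0.07, below 0.

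Ghr was highest in the Ccn5 gate at both stages, at 585 CPM at puberty and 535 CPM in the adult, and lowest in Crabp1, at 222 and 177 CPM. Between them stood Gdf10 or Fmo2 at 463, Thbs4 or Bmp5 at 423, Pi16+Dpp4+ at 392 and Fabp4 at 306 CPM at puberty. In the adult the order was Thbs4 or Bmp5 at 402, Gdf10 or Fmo2 at 355, Pi16+Dpp4+ at 348 and Fabp4 at 262 CPM. No neighbouring intervals overlapped at either stage. The ratio was below 1 in every gate and within 1.5-fold, from 0.767 (0.757 to 0.777) in Gdf10 or Fmo2 to 0.952 (0.922 to 0.983) in Thbs4 or Bmp5. In cells of Thbs4 or Bmp5 alone it turned to 1.08 (1.005 to 1.16). The Ccn5 gate, where Esr1, Pgr and Greb1 had ratios below 0.5, had a Ghr ratio of 0.915 (0.883 to 0.949).

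Most Prlr UMIs, unlike those of Pgr, lay outside Pi16+Dpp4+ cells. These cells held 30.2% of its pubertal and 27.7% of its adult UMIs, whereas cells with Gdf10 or Fmo2 held 78.4% and 77.1%. At puberty Prlr was at 69.1 CPM in Fabp4, 55.3 in Gdf10 or Fmo2, 43.5 in Thbs4 or Bmp5, 31.3 in Ccn5, 11.6 in Pi16+Dpp4+ and 9.91 in Crabp1, with only the last 2 overlapping. In the adult it was at 27.5 CPM in Ccn5, 18.4 in Gdf10 or Fmo2, 17.6 in Fabp4, 15.2 in Thbs4 or Bmp5, 6.89 in Pi16+Dpp4+ and 2.00 in Crabp1, and the Gdf10 or Fmo2, Fabp4 and Thbs4 or Bmp5 intervals formed a run of overlaps. The ratio was 0.255 (0.233 to 0.279) in Fabp4, 0.333 (0.317 to 0.350) in Gdf10 or Fmo2, 0.350 (0.311 to 0.395) in Thbs4 or Bmp5, 0.202 (0.135 to 0.305) in Crabp1 and 0.594 (0.548 to 0.644) in Pi16+Dpp4+. In the Ccn5 gate it was 0.879 (0.749 to 1.03), an interval that includes 1. There the share of cells with a Prlr UMI was 7.47% at puberty and 3.86% in the adult, and a single adult cell held 43 of the gate's 267 Prlr UMIs. Cells with both Gdf10 and Fmo2 had more Prlr than cells with either gene alone, at 103 CPM at puberty and 28.1 CPM in the adult.

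Some Prlr and Pgr UMIs sat in cells that also carried epithelial transcripts. The pubertal Pi16+Dpp4+ cell with the most Prlr, 90 UMIs, held 178 UMIs of the epithelial and luminal markers, and the adult Gdf10 or Fmo2 cell with the most, 122 UMIs, held 216. The cell with the most Prlr in the pubertal Gdf10 or Fmo2 gate, and in the pubertal Fabp4 gate, had 74 Prlr and 500 marker UMIs. Prlr without those cells was at 11.1 CPM in the pubertal Pi16+Dpp4+ gate and 17.5 CPM in the adult Gdf10 or Fmo2 gate. It was at 54.6 CPM in pubertal Gdf10 or Fmo2 and 66.3 CPM in pubertal Fabp4. The pubertal Fabp4 cell with the most Pgr, 35 of the gate's 269 UMIs, also held 500 marker UMIs. The other cells with the most Prlr or Pgr of a gate held at most 1 marker UMI. In all fibroblasts the top 1% of cells held 30.6% of Prlr UMIs at puberty and 51.5% in the adult, values close to those of Pgr, at 31.1% and 48.4%, which is also detected in few cells. Greb1 had 26.3% and 33.04%, and the more widely detected Esr1 5.57% and 8.004%. Leaving out every fibroblast with a UMI of an epithelial, luminal, mural, Schwann, skeletal muscle, endothelial or immune marker gave a Prlr ratio of 0.367, an alternative added after seeing the data. The counts were made at the 3′ end and do not tell the long from the short Prlr transcripts, nor the membrane from the soluble form of Ghr.

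Greb1 was highest in the Ccn5 gate at both stages, at 63.9 CPM at puberty and 25.4 CPM in the adult. At puberty it was at 19.98 CPM in Pi16+Dpp4+, 19.3 in Gdf10 or Fmo2, 9.36 in Thbs4 or Bmp5, 7.95 in Fabp4 and 4.25 in Crabp1, a 15.1-fold range from the highest to the lowest gate, in which the neighbours Pi16+Dpp4+ and Gdf10 or Fmo2 overlapped, as did Thbs4 or Bmp5 and Fabp4. In the adult it was at 12.2 CPM in Pi16+Dpp4+, 10.5 in Thbs4 or Bmp5, 7.79 in Gdf10 or Fmo2, 5.02 in Fabp4 and 3.51 in Crabp1, a 7.22-fold range with no overlap between neighbours. The ratio was 0.397 (0.342 to 0.458) in Ccn5, 0.404 (0.374 to 0.437) in Gdf10 or Fmo2, 0.612 (0.576 to 0.651) in Pi16+Dpp4+ and 0.632 (0.515 to 0.774) in Fabp4. In the Gdf10 or Fmo2 gate the ratio was 0.458 (0.418 to 0.503) in the cells that were also Pi16+Dpp4+, which made up 55.9% of the gate at puberty and 30.4% in the adult. In its cells outside Pi16+Dpp4+ the ratio was 1.04 (0.859 to 1.25), and in cells of that gate alone 1.31 (0.995 to 1.74). The intervals of Crabp1, 0.827 (0.501 to 1.45), and of Thbs4 or Bmp5, 1.12 (0.906 to 1.40), included 1. Most Greb1-positive cells had few UMIs: 59.8% of those at puberty and 72.7% in the adult had exactly 1.

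Counted by gate with the 1.5-fold rule and the 10 CPM minimum, 3 of 6 genes (Pgr, Prlr, Greb1) were lower in adult Pi16+Dpp4+ cells, where 3.86% of all genes were lower and 9.46% higher. In the Ccn5 gate 3 of 6 (Esr1, Pgr, Greb1) were lower against 6.27% of all genes, with 12.7% higher. In Gdf10 or Fmo2 4 of 6 (Esr1, Pgr, Prlr, Greb1) were lower against 5.72%, with 10.7% higher. In Thbs4 or Bmp5 3 of 6 (Esr1, Pgr, Prlr) were lower against 5.43%, with 6.21% higher. In Fabp4, where Greb1 did not reach 10 CPM, 3 of 5 (Esr1, Pgr, Prlr) were lower against 5.36%, with 8.12% higher. In Crabp1, where Prlr and Greb1 did not reach 10 CPM, 2 of 4 (Esr1, Pgr) were lower against 6.45%, with 8.27% higher. None of the genes was higher by 1.5-fold in any gate. The gates shared cells, so these counts are not independent of each other. Of the calls in Pi16+Dpp4+, those of Pgr and Greb1 ended in cells of that gate alone, at 0.836 and 0.826. Prlr was at 4.96 and 3.04 CPM in those cells, under the 10 CPM minimum, so its call ended there too. Of those in Gdf10 or Fmo2, Esr1 was at 0.701 in cells of that gate alone, short of the call. Greb1 turned to 1.31 there, with an interval of 0.995 to 1.74 that included 1. Pgr was at 2.11 and 1.08 CPM and Greb1 at 3.36 and 4.39 CPM in those cells, both under the 10 CPM minimum. In cells of Thbs4 or Bmp5 alone Esr1 was at 0.799, and Pgr turned to 1.55 from 2 UMIs at puberty. In cells of Ccn5 alone, 15 and 20 cells, Esr1 was at 0.691 and Pgr at 0.744, and in cells of Fabp4 alone Pgr was at 0.953. The Pgr calls in Fabp4 and Crabp1 each depended on 1 pubertal cell, which held 35 of 269 and 14 of 48 Pgr UMIs. Without that cell pubertal Pgr was at 9.18 and 8.08 CPM, under the 10 CPM minimum. Cells of Crabp1 alone had no Pgr UMI at puberty.

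**Figure D2:**
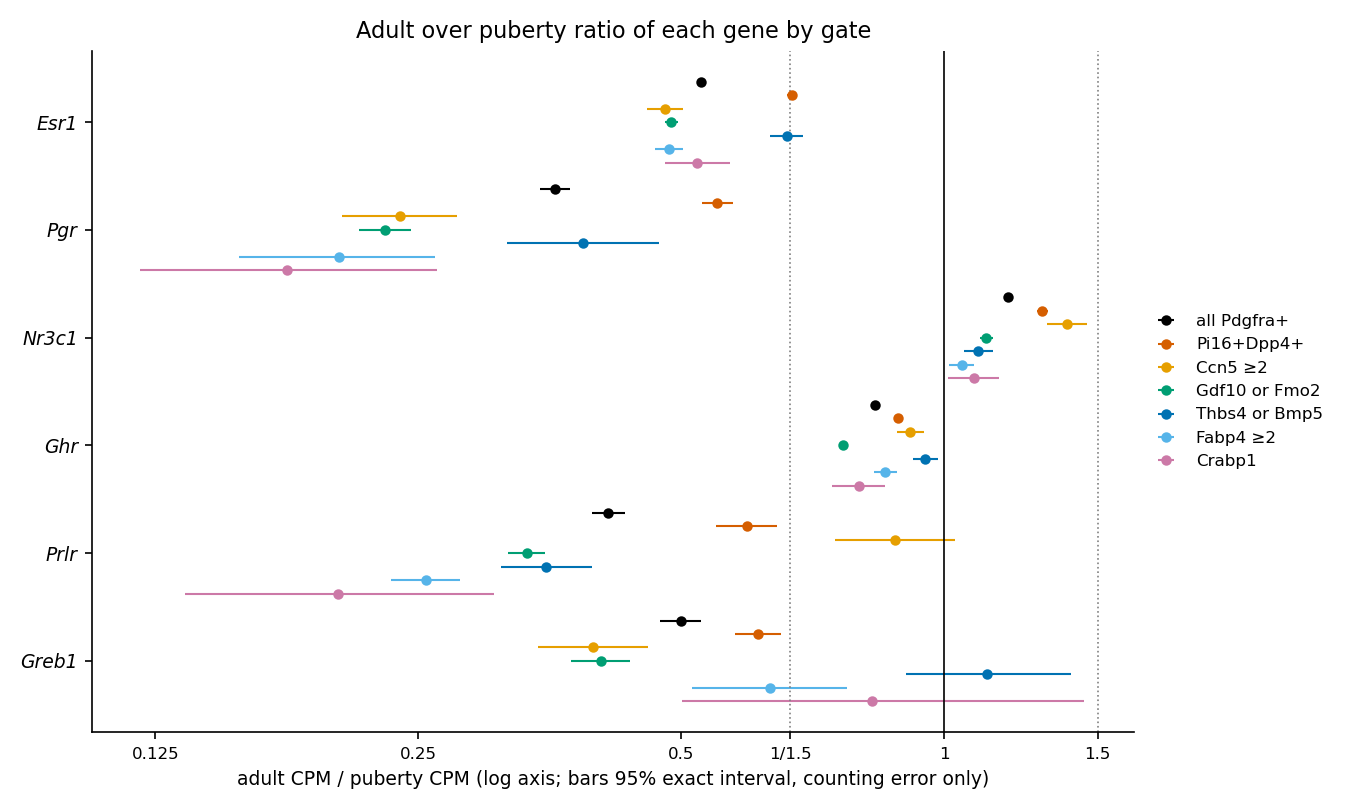
Ratio of adult to pubertal CPM for each gene (rows) in all Pdgfra+ fibroblasts and in each gate (colors), on a log axis with 95% exact intervals for counting error; the solid line marks equal levels and the dotted lines 1.5-fold. Pgr ratios ranged from 0.177 to 0.550 over the gates and all lay left of the dotted line, Nr3c1 ratios lay between 1.05 and 1.38, and Greb1 in the Thbs4 or Bmp5 gate was at 1.12.

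The Pi16+Dpp4+ gate was then divided by Ccn5. At puberty Greb1 was at 15.2 CPM in Pi16+Dpp4+ cells with 0 Ccn5 UMIs (12353 cells), 38.01 CPM in those with 1 (891 cells) and 66.8 CPM in those with at least 2 (739 cells). Pgr was at 44.0, 76.3 and 94.7 CPM in the same cells, so that both genes were higher with more Ccn5. In the adult Greb1 was at 11.03, 13.2 and 28.0 CPM (7842, 558 and 453 cells), but Pgr at 27.7, 23.5 and 23.9 CPM, without the pubertal gradient. The thinned share of cells with a Greb1 UMI was 4.08%, 10.1% and 16.5% at puberty and 2.90%, 2.87% and 9.27% in the adult. The ratio of Pgr was accordingly 0.630 (0.603 to 0.658) without Ccn5 and 0.252 (0.214 to 0.296) with at least 2 UMIs, and that of Greb1 0.725 (0.675 to 0.778) and 0.419 (0.358 to 0.488). At puberty Prlr was at 9.82, 22.4 and 24.2 CPM in the Pi16+Dpp4+ cells with 0, 1 and at least 2 Ccn5 UMIs, below the 88.9 CPM outside the gate. In the adult it was at 4.97, 11.3 and 28.7 CPM, the last above the 17.2 CPM outside the gate. The adult to puberty ratio of the last was 1.18 (0.984 to 1.42), an interval that included 1. In the adult Pi16+Dpp4+ gate and in the adult Ccn5 gate, the cell with the most Prlr held 43 UMIs, of 833 and 267. The ratio without such a cell was not computed for these subsets.

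**Figure D3:**
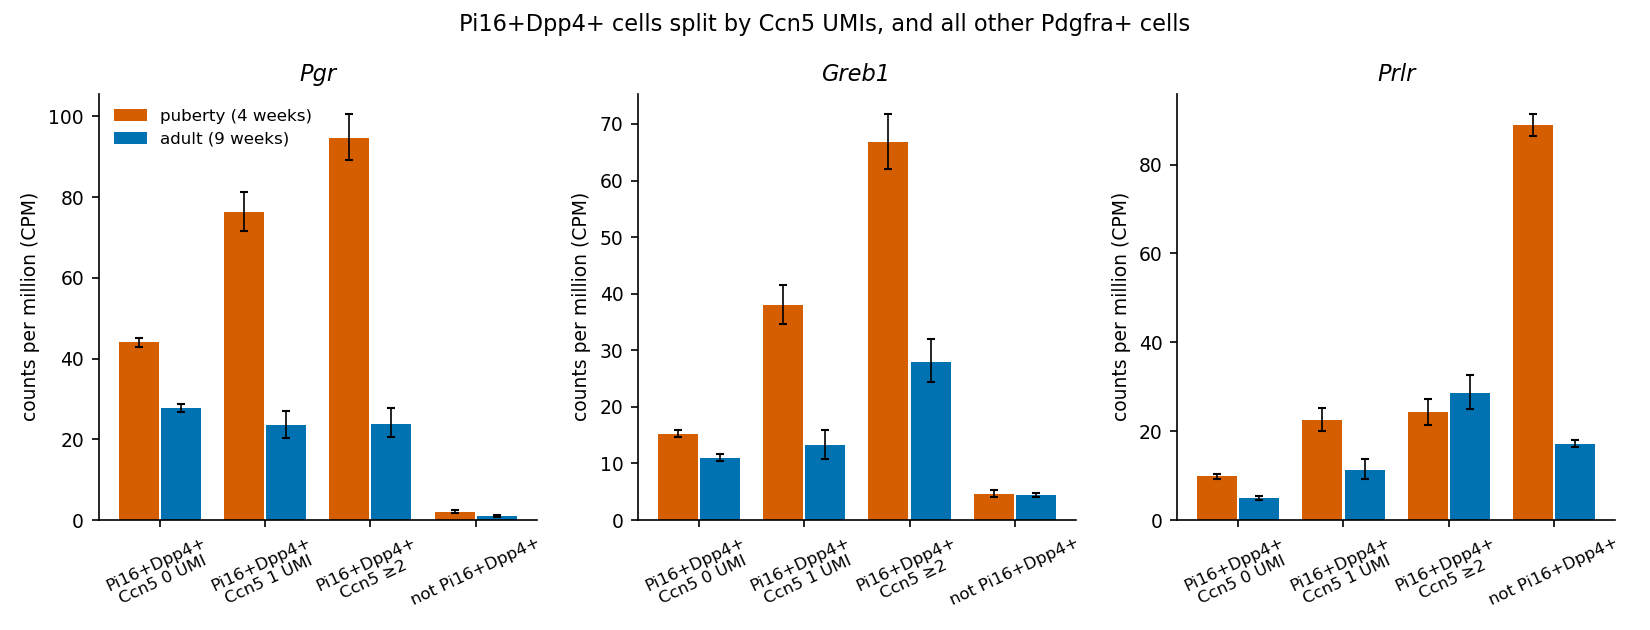
CPM (y axis, starting at 0) of Pgr, Greb1 and Prlr in Pi16+Dpp4+ cells with 0, 1 or at least 2 Ccn5 UMIs and in all other Pdgfra+ cells, at puberty (orange) and in the adult (blue), with 95% Poisson intervals. Pgr was at 2.10 and 0.995 CPM outside Pi16+Dpp4+ cells, where Prlr was at 88.9 and 17.2 CPM, and Greb1 reached 66.8 CPM in the pubertal Ccn5 cells.

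Detection of each receptor was set against detection of Greb1 in the thinned fibroblasts, 18542 at puberty and 20573 in the adult. Pgr had the largest odds ratio with Greb1, though it was found in only 21.0% of Greb1-positive cells at puberty and 9.00% in the adult. Esr1 was found in 68.7% and 53.0% of them, Ghr in 62.7% and 58.4%, and Nr3c1 in 46.9% and 57.4%. At puberty 12.5% of cells with a Pgr UMI and 3.51% of cells without had a Greb1 UMI, an odds ratio of 3.92 (3.24 to 4.72), and in the adult 7.86% and 1.86%, an odds ratio of 4.50 (3.08 to 6.41). For Esr1 the shares were 5.20% and 2.85% at puberty, an odds ratio of 1.87 (1.60 to 2.19), and 3.09% and 1.43% in the adult, an odds ratio of 2.20 (1.80 to 2.69). Ghr had odds ratios of 1.40 (1.21 to 1.64) and 1.48 (1.21 to 1.82). The Nr3c1 intervals included 1 at both stages, at 0.878 (0.757 to 1.02) and 1.10 (0.896 to 1.34). Cells are not replicates, and these values describe 2 libraries.

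Prlr and Greb1 were found together less often than the product of their shares at puberty, with an odds ratio of 0.661 (0.441 to 0.958) from 30 cells with both, and the adult value was 0.911 (0.388 to 1.83) from 8 cells. Compared within cells of the same pattern of gates, the pubertal value was 1.01, close to 1, and no interval was computed for it. The odds ratios of Pgr and Esr1 also came closer to 1 within gate patterns and kept their direction: 2.80 at puberty and 2.82 in the adult for Pgr, and 1.47 and 1.62 for Esr1. Within Pi16+Dpp4+ cells the Pgr odds ratios were 3.07 (2.52 to 3.71) and 2.89 (1.95 to 4.17).

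Greb1 detection was read in the 4 states given by Esr1 and Pgr. At puberty a Greb1 UMI was seen in 2.40% (2.08 to 2.76%) of cells with neither receptor, 4.47% (4.06 to 4.91%) of cells with Esr1 only, 11.9% (8.85 to 15.5%) of cells with Pgr only and 12.7% (10.6 to 15.1%) of cells with both. In the adult these shares were 1.34%, 2.89%, 8.05% and 7.74%, with the Pgr-only and both-receptor intervals overlapping at each stage. These values cannot tell whether Esr1 beside Pgr goes with a difference in Greb1 detection. In the adult only 14 of 174 Pgr-only cells had a Greb1 UMI. Many cells counted as lacking Esr1 were also thinned below detection: 83.7% of pubertal fibroblasts had an Esr1 UMI before thinning and 54.6% after. Thinning to 3000 UMIs leaves many expressing cells without a UMI, so a cell called negative may hold the transcript. By the number of the 5 receptors detected, from 0 to 4, the Greb1 share was 1.98%, 3.14%, 4.37%, 5.82% and 9.34% at puberty and 1.15%, 1.47%, 2.37%, 3.49% and 6.96% in the adult. Only 5 pubertal cells and 1 adult cell had all 5 receptors, and none of them had a Greb1 UMI. At least 1 receptor was detected in 95.3% of the 766 pubertal and 90.5% of the 411 adult Greb1-positive cells, and in 90.0% and 83.3% of Greb1-negative cells.

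**Figure D4:**
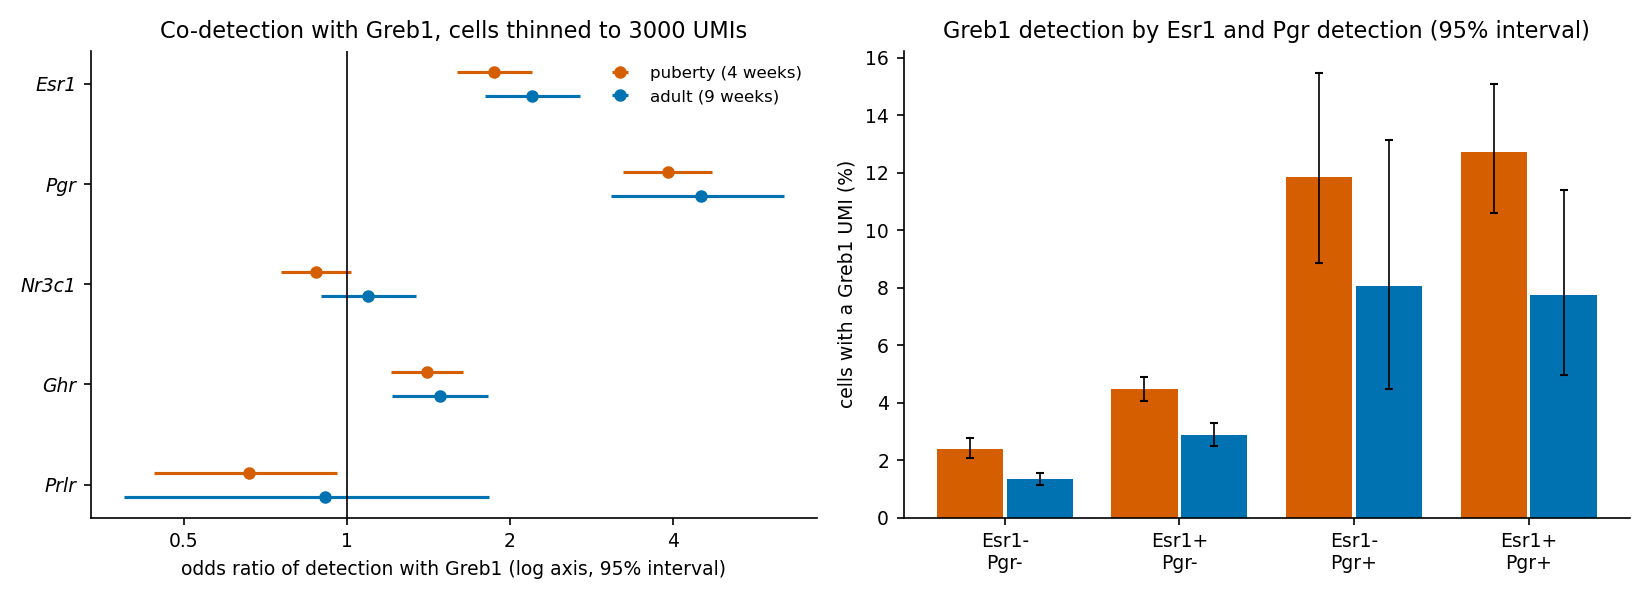
Left, odds ratio of detecting each receptor and Greb1 in the same cell (log axis, 95% exact intervals, cells thinned to 3000 UMIs) at puberty (orange) and in the adult (blue); right, share of cells with a Greb1 UMI in the 4 states of Esr1 and Pgr detection, with 95% Clopper-Pearson intervals. Pgr had the largest odds ratios (3.92 and 4.50), and the Greb1 share was 11.9% and 12.7% in the pubertal Pgr-positive states against 2.40% with neither receptor.

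Among the receptors themselves, Pgr and Prlr were seldom found in the same cell. Both were detected in 21 of 18542 pubertal cells, 0.284 of the product of their shares, with an odds ratio of 0.257 (0.158 to 0.397), and in 4 of 20573 adult cells, with an odds ratio of 0.388 (0.105 to 1.01). Esr1 and Pgr were found together more often than the product, with a pubertal odds ratio of 1.97 (1.74 to 2.23) and an adult one of 3.37 (2.78 to 4.10). Ghr and Prlr, which share their signaling route, had odds ratios of 1.67 (1.46 to 1.91) and 1.98 (1.62 to 2.43). Esr1 and Prlr were found together less often than the product at puberty, with an odds ratio of 0.647 (0.570 to 0.735), and the adult odds ratio was 0.988 (0.803 to 1.21). Esr1 and Nr3c1 stood at 0.866 (0.817 to 0.918) and 1.14 (1.08 to 1.21), on opposite sides of 1 at the 2 stages. These values were not adjusted for gates.

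Other genes of the same hormone pathways were read from 6 lists, of which 50 genes had at least 10 CPM in 1 library. Among other steroid and nuclear receptors, 6 of 10 were compared, 2 were higher in the adult by 1.5-fold and 0 lower, with a median log2 ratio of 0.38 against 0.13 for all genes. Nr3c2, the mineralocorticoid receptor, was at 32.1 CPM at puberty and 98.4 CPM in the adult, a ratio of 3.07 (2.99 to 3.15), and was higher in all 6 gates, by 1.66-fold in Crabp1 to 3.10-fold in Ccn5. Pgrmc1, a membrane-associated heme-binding protein named for progesterone binding, was at 90.9 and 144 CPM, a ratio of 1.59 (1.56 to 1.61), but passed 1.5-fold only in the Gdf10 or Fmo2 gate, at 1.65, with 1.04 to 1.35 in the other gates. With edgeR's factors Pgrmc1, and in the next lists Ncoa1 and Fkbp5, no longer passed 1.5-fold.

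None of 7 estrogen response genes other than Pgr and Greb1 differed by 1.5-fold, and their median log2 ratio was 0.21. With edgeR's factors Myc, a growth-promoting transcription factor gene at 264 and 182 CPM (ratio 0.688), passed as lower. Of 10 receptor chaperones and cofactors, the coactivator Ncoa1 was higher at 150 and 239 CPM, a ratio of 1.60, and none was lower, with a median of 0.22. Of 10 glucocorticoid response genes, Fkbp5, which encodes a co-chaperone of the glucocorticoid receptor, was higher at 26.0 and 41.7 CPM (ratio 1.60), and the metallothionein Mt2 lower at 1177 and 764 CPM (ratio 0.649), with a median of 0.16. Of 10 genes of growth hormone and prolactin signaling, Socs1, an inhibitor of JAK kinases, was lower at 214 and 88.8 CPM, a ratio of 0.415 (0.409 to 0.422), and was lower in all 6 gates, with ratios from 0.380 to 0.613. None was higher, and the median of that list was -0.03.

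The largest differences of these lists were in steroid enzymes, of which 7 of 11 were compared. Hsd11b1, the enzyme that regenerates active glucocorticoid inside cells, was at 30.2 CPM at puberty and 166 CPM in the adult, a ratio of 5.50 (5.36 to 5.64). It was higher in all 6 gates, by 2.44-fold in Thbs4 or Bmp5 to 4.92-fold in Gdf10 or Fmo2. Akr1c18, which inactivates progesterone, was at 380 and 102 CPM, a ratio of 0.268 (0.264 to 0.272), and its ratios in the gates ran from 0.166 in Ccn5 to 0.419 in Pi16+Dpp4+. The median log2 ratio of the list was 0.26. Sts was not among the listed genes.

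**Figure D5:**
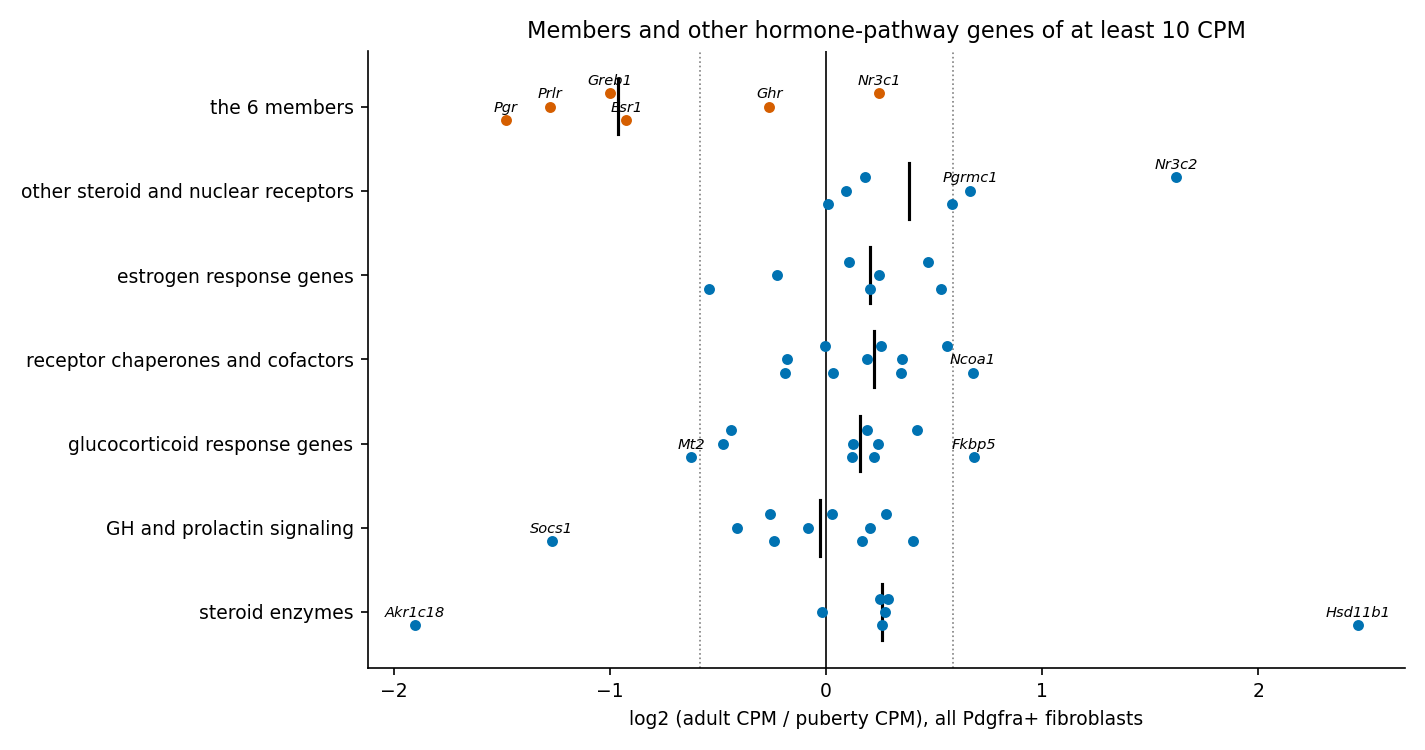
Log2 ratio of adult to pubertal CPM in all Pdgfra+ fibroblasts (x axis) for the 6 genes (orange) and for the genes of 6 hormone-related lists with at least 10 CPM in 1 library (blue); black bars are medians, dotted lines mark 1.5-fold, and genes past it are named. The 6 genes lay between -1.48 (Pgr) and 0.25 (Nr3c1), while list medians lay between -0.03 and 0.38.

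Genes whose level followed each of the 6 most closely were ranked by Pearson's r of log2(CPM + 1) over the 12 sums of 6 gates and 2 stages, among 9516 genes. The sums share cells and libraries, so r is a description without a test. For Pgr they were Osr2, a zinc finger transcription factor (0.99), Gm8739 (0.99) and Dhrs9, a short-chain dehydrogenase (0.97). For Greb1 they were Trdn, the sarcoplasmic reticulum protein triadin (0.97), Kdr, a receptor of vascular endothelial growth factor (0.96), and Lbp, which binds lipopolysaccharide (0.95). For Esr1 they were the ribosomal protein genes Rpl29 (0.97) and Rpl36 (0.97) and the tumor necrosis factor receptor Tnfrsf1b (0.97). For Ghr they were Gpx3 (0.97), Plcd1 (0.96) and Prnp (0.96), for Prlr Bag3 (0.95), Irgm1 (0.95) and Slc8a2 (0.93), and for Nr3c1 Copg2 (0.94), Gm32618 (0.94) and Sdc2 (0.93).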

How the data were processed

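The authors deposited filtered gene-by-cell matrices of UMI counts for 1 pubertal and 1 adult library, made per the labels with a GEM-X 3′ kit and, per the submitters' processing notes, with Cell Ranger 8.0.1 and mm10. The study's methods name another kit and software version, and the labels were followed. The deposited counts were used as they were. Cells were kept with at least 500 genes, at most 10% mitochondrial UMIs and at least 1 Pdgfra UMI. Counts were summed per library and gate and divided by the summed UMIs. Detection was read after thinning each cell to 3000 UMIs without replacement, and 336 pubertal and 426 adult fibroblasts below that depth were left out of it. Both libraries are labelled replicate 2, and no model across samples was fitted. Intervals were exact 95% Poisson, Clopper-Pearson and conditional binomial intervals, and the limit for a count of 0 was 3 counts. A fold was called at 1.5-fold, for genes that reached 10 CPM in either library. Doublets were kept. As an alternative the highest Scrublet scores were left out at 0.4% per 1000 barcodes.

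The members and lists were chosen with earlier results of these data known. Named genes were the 6 members, the gate genes, up to 3 genes at each end of a hormone list past 1.5-fold, and the 3 genes most correlated with each member. Alternatives changed the cell filters, doublets, thinning depth, overlap of gates, gene filter, weighting of gates and library scaling (edgeR 4.0.16 TMM and DESeq2 1.42.0 size factors). The interval and ratio code was tested on simulated data. Promoter sequences came from RefSeq, GRCm38.p6. Python 3.11.15, numpy 2.4.6, scipy 1.17.1, pandas 2.3.3, scanpy 1.11.5 and R 4.3.3 were used.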

Additional observations from a re-analysis of the deposited data

Results flagged for a closer look

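Cells of other types were not part of the comparisons. Among cells without a Pdgfra UMI and with at least 3 of 5 skeletal muscle markers, Esr1 was detected in 49.4% of 85 thinned adult cells and Greb1 in 38.8% (33 cells), against 2.90% and 0% of adult mural cells. Greb1 was at 291 CPM in these adult cells and at 36.0 CPM in the 33 pubertal ones.

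In cells that passed exactly 1 gate, ratios of adult to pubertal CPM lay on both sides of 1 for 4 genes, and the differences between gates were not tested. Nr3c1 was at 1.30 in cells of Pi16+Dpp4+ alone and 1.11 in those of Thbs4 or Bmp5 alone, but at 0.934 in those of Gdf10 or Fmo2 alone. Pgr was at 1.55 in cells of Thbs4 or Bmp5 alone, from 2 pubertal UMIs, and below 1 in the other gates that gave a ratio. Ghr was at 1.08 in cells of Thbs4 or Bmp5 alone, and at 0.918, 0.786 and 0.913 in those of Pi16+Dpp4+, Gdf10 or Fmo2 and Fabp4 alone. Greb1 was at 4.85 in cells of Thbs4 or Bmp5 alone, from 2.09 to 10.1 CPM, with only 5 UMIs at puberty and an interval of 1.99 to 15.3. It was at 1.31 (0.995 to 1.74) in cells of Gdf10 or Fmo2 alone and 0.826 in those of Pi16+Dpp4+ alone. In those of Ccn5 alone, which were 15 pubertal and 20 adult cells, it was at 0.148.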

How the results depend on the processing

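Over 12 alternatives the adult to puberty ratio in all fibroblasts kept its direction for each of the 6 genes, between 0.478 and 0.704 for Esr1, 0.296 and 0.637 for Pgr, 1.07 and 1.21 for Nr3c1, 0.755 and 0.870 for Ghr, 0.325 and 0.769 for Prlr, and 0.453 and 0.664 for Greb1. The ratios that left their counting intervals follow, and the cause was not tested. Without the Pdgfra requirement they were 0.534 for Esr1, 0.377 for Pgr, 0.769 for Prlr and 0.558 for Greb1, and with at least 2 Pdgfra UMIs 0.383 for Prlr. Leaving out cells with a marker UMI of other cell types (added after seeing the data) gave 0.485, 0.296, 1.15, 0.818, 0.367 and 0.456 for Esr1, Pgr, Nr3c1, Ghr, Prlr and Greb1. The mean of the CPM of each cell gave 0.516, 0.337, 0.859, 0.380 and 0.464 for Esr1, Pgr, Ghr, Prlr and Greb1. With edgeR's factors the 6 ratios, in the order above, were 0.478, 0.325, 1.07, 0.755, 0.374 and 0.453, and with those of DESeq2 0.478, 0.325, 1.08, 0.756, 0.374 and 0.453. Equal weight for each gate gave 0.549, 0.315, 1.16 and 0.870 for Esr1, Pgr, Nr3c1 and Ghr. Gate patterns weighted to their pubertal share (added after seeing the data) gave 0.704, 0.637, 1.21, 0.866, 0.325 and 0.664.

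In cells of exactly 1 gate, 2 ratios past 1.5-fold turned. Greb1 turned to 1.31 (0.995 to 1.74) in Gdf10 or Fmo2, and Pgr to 1.55 in Thbs4 or Bmp5, the latter from 2 pubertal UMIs. Ratios within 1.5-fold also crossed 1 there, to 0.934 and 0.980 for Nr3c1 in Gdf10 or Fmo2 and in Crabp1 and to 1.08 for Ghr in Thbs4 or Bmp5, which was also at 1.04 with gates set on thinned cells. Of the 178 gate values under alternatives, 113 stayed within their intervals. In cells of exactly 1 gate only 5 of 34 did, and with gates set on thinned cells 17 of 36. With predicted doublets left out 26 of 36 did, and with thinning to 2000 and 5000 UMIs 34 and 31 of 36. Odds ratios with Greb1 in cells not thinned were 4.17 and 4.23 for Esr1 (puberty, then adult), 1.19 and 2.44 for Nr3c1, and 2.16 and 2.46 for Ghr. Within gate patterns they were 1.47 and 1.62 for Esr1, 2.80 and 2.82 for Pgr, and 1.01, close to 1, for pubertal Prlr. In Pi16+Dpp4+ cells alone (added after seeing the data) they were 1.52 and 1.59 for Esr1, 3.07 and 2.89 for Pgr, and 1.18 for pubertal Prlr. Thinning to 2000 UMIs gave 2.99 for pubertal Pgr and 0.866 for adult Nr3c1, and to 5000 UMIs 1.71 for pubertal Ghr. The adult Prlr odds ratio, whose interval included 1, ranged from 0.799 to 1.54 over the alternatives. The Nr3c1 direction thus depended on depth at both stages. Among all genes with a UMI in each library, 23.0% were higher and 15.6% lower. With edgeR's factors 1 other receptor, 0 cofactors and 0 glucocorticoid response genes were higher, and 1 estrogen and 2 glucocorticoid response genes lower. With a minimum of 1 CPM 1 estrogen response gene was higher.

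No paired analysis was possible because each stage had 1 library and the labels share the single replicate number 2. Leaving out a replicate was not possible for the same reason.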

Other observations

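Fibroblasts that carried both marker genes of the Gdf10 or Fmo2 gate, and those with Bmp5 alone, were the adult groups with the highest Prlr of their gates, at 28.1 and 34.4 CPM, with pubertal values of 103 and 72.01 CPM. Outside Pi16+Dpp4+ cells Greb1 was at 4.67 CPM at puberty and 4.38 CPM in the adult, a ratio of 0.936 (0.806 to 1.09). In Thbs4 or Bmp5 cells outside Pi16+Dpp4+ Greb1 was at 4.17 and 8.68 CPM, a ratio of 2.08 (1.34 to 3.37), and in cells with Thbs4 and no Bmp5 UMI at 6.17 and 9.91 CPM, a ratio of 1.61 (1.05 to 2.54). Adult Schwann comparison cells, 52 in number, held 1233 Prlr UMIs in 4 cells, and 5 of the 52 had at least 3 epithelial markers, which summed to 5241 CPM over the 52 cells and to 0 in the 60 pubertal ones. The part of the epithelial transcripts in that value was not tested. These splits were chosen after their values were seen, and no explanation was tested.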
